A study of Mus musculus with 16 samples.

Results

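The genes described here are the 10 that encode the core of mouse MHC class I antigen presentation and the immunoproteasome, namely the heavy chains H2-K1 and H2-D1, the light chain B2m, the peptide transporter Tap1 and Tap2, the loading factor Tapbp, the immunoproteasome subunits Psmb8, Psmb9 and Psmb10, and the transactivator Nlrc5. They were chosen by symbol, and all 10 were found among the 25562 genes of the RNA count table and passed the filter on low counts. By Ensembl identifier, 18 of the 40796 open regions of the ATAC table were assigned to them. Measurements were made in monocytes of the spleen of wild type C57BL/6 mice on day 7 after birth, sorted by their level of Nrp1, neuropilin-1, a surface receptor of semaphorins, into Nrp1 high and Nrp1 low cells. RNA-seq comprised 3 Nrp1 high and 3 Nrp1 low libraries of 80000 cells each, and ATAC-seq, in which a transposase cuts accessible DNA, comprised 5 Nrp1 high and 5 Nrp1 low libraries of 50000 cells each. The comparison of the fractions asks which genes differ between monocytes with much and with little Nrp1. The labels call the sorted cells myeloid-derived suppressor cells and the protocol calls them monocytes. They give no sex, and they do not say how many animals were pooled.

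MHC class I molecules show peptides from inside the cell to CD8 T cells and are ligands for receptors of NK cells. Proteasomes cut cytosolic proteins into peptides. In the immunoproteasome, which interferon gamma induces and which many blood cells carry at rest, the catalytic subunits Psmb5, Psmb6 and Psmb7 of the standard particle are replaced by Psmb8, Psmb9 and Psmb10. The transporter formed by Tap1 and Tap2 moves the peptides into the endoplasmic reticulum, where tapasin, the product of Tapbp, holds empty heavy chains beside it. Nlrc5 is the class I transactivator, the counterpart of Ciita for MHC class II. The monocyte markers were present in both fractions. Csf1r, the receptor for the growth factor CSF-1, averaged 482 ± 16.3 CPM in the Nrp1 high libraries and 420.1 ± 46.6 CPM in the Nrp1 low libraries (SD, n = 3 each), where CPM is the count scaled to library size. Of the 10 monocyte markers 0 were called by edgeR and 4 had an unadjusted p under 0.05. Ccr2, the chemokine receptor of classical monocytes, and F13a1, a coagulation factor gene, had log2 fold changes of 0.81 ± 0.26 SE and 0.77 ± 0.20. Cd14, a co-receptor for lipopolysaccharide, and Nr4a1, a nuclear receptor of non-classical monocytes, had -1.33 ± 0.35 and -0.89 ± 0.21, without overlap in any of the 4 (edgeR adjusted p = 0.356, 0.246, 0.234 and 0.183).

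Total counts per RNA library were 28440098 to 31428419 in Nrp1 high and 23395363 to 35127433 in Nrp1 low. Nrp1 itself stood at 97.3, 89.8 and 111 CPM in the Nrp1 high libraries and at 20.1, 57.8 and 41.5 CPM in the Nrp1 low libraries (log2 difference 1.32 ± 0.36 SE, edgeR adjusted p = 0.259). Nrp1 low replicate 1 stood apart. On the first principal component, with 61.4% of the variance of log2 CPM, it lay at 89.5, and the other Nrp1 low libraries at -9.353 and 19.48, while the Nrp1 high libraries lay at -50.26, -4.716 and -44.65 for replicates 1, 2 and 3. The fractions also differed in genes listed as markers of other cells. The summed level of 16 genes listed as neutrophil markers was 9592 to 12301 CPM in the Nrp1 high libraries and 52716 to 85334 CPM in the Nrp1 low libraries. The largest part was S100a8, at 3636 ± 364 CPM in the Nrp1 high libraries and 24256 ± 7327 CPM in the Nrp1 low libraries (SD, n = 3 each). Of the 16 genes 11 fell in Nrp1 high by edgeR's test, and whether they mark neutrophils or the monocytes themselves was not tested. Without Nrp1 high replicate 3 edgeR called 0 genes of any kind, these included (909 at an unadjusted p under 0.05). The sums of 9 NK cell genes were 51.8 to 81.1 CPM in the Nrp1 high libraries and 164 to 221 CPM in the Nrp1 low libraries. Most of that sum was Nkg7, a granule gene of cytotoxic cells, at 49.7 ± 11.3 CPM in the Nrp1 high libraries and 173 ± 29.5 CPM in the Nrp1 low libraries (SD, n = 3 each), and it was the only NK cell gene called (log2 -1.80 ± 0.24 SE, edgeR adjusted p = 0.0166). The 10 macrophage genes summed to 276 to 332 CPM in the Nrp1 high libraries and 505 to 598 CPM in the Nrp1 low libraries, and the 10 platelet genes to 13.7 to 19.3 CPM in the Nrp1 high libraries and 61.6 to 78.9 CPM in the Nrp1 low libraries. By edgeR 0 of the 10 macrophage genes were called, though all 10 lay below 0 (9 with library totals) and 7 had an unadjusted p under 0.05. Of the 9 platelet genes tested 3 were called lower in Nrp1 high (1 with library totals as the scaling). B cell, T cell, dendritic cell, erythroid and monocyte sums overlapped between the fractions. The monocyte sums did so narrowly, since the lowest Nrp1 high sum was 4825 CPM and the highest Nrp1 low sum 4829.5 CPM. Their largest part was Ly6c2 (log2 -0.04 ± 0.24 SE). The largest part of the dendritic cell sums was Ly6d (log2 -0.53 ± 0.26 SE). Of the 10 dendritic cell genes tested 8 lay above 0 and 2 below, Ly6d among the latter, and edgeR called 0. None of the markers summed here was at 0 in all libraries. Their part in the results below was not tested, and in sorted bulk samples fewer cells of a type and less RNA per cell cannot be told apart.

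No gene of the group passed the test between the fractions. By edgeR's quasi-likelihood test, adjusted over 15541 genes, 0 of the 10 were called at adjusted p under 0.05, where 0.682% of all genes were called. DESeq2 and limma-voom also called 0 of the 10. At an unadjusted p under 0.05 there were 2 of 10 by each of the 3 tools. Over all genes there were 1744 of 15541 by edgeR, or 11.2%, 2289 of 15530 by DESeq2 and 2487 of 15541 by limma-voom. The point estimates were below 0 for 8 genes and above 0 for Tap1 and Nlrc5, with a median log2 fold change of -0.21 beside 0.01 for all genes tested. With library totals as the scaling 5 genes lay below and 5 above 0, with a median of -0.02 beside 0.20 for all genes. In that scaling 5800 of the 15541 genes tested lay below 0. Under TMM scaling 49.4% of all genes lay below 0, and edgeR's calls were split into 0.00643% of all genes higher and 0.676% lower in Nrp1 high. The split depended on the tool, with 77 genes higher and 326 lower by DESeq2 and 1 higher and 119 lower by limma-voom. The 3 libraries of each fraction did not overlap in 4 of the 10 genes, where 20.3% of all genes did not overlap. The Nrp1 high libraries lay above in 2 of them, Tap1 and Nlrc5 (9.51% of all genes), and below in the other 2, B2m and H2-K1 (10.8% of all genes).

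**Figure D1:**
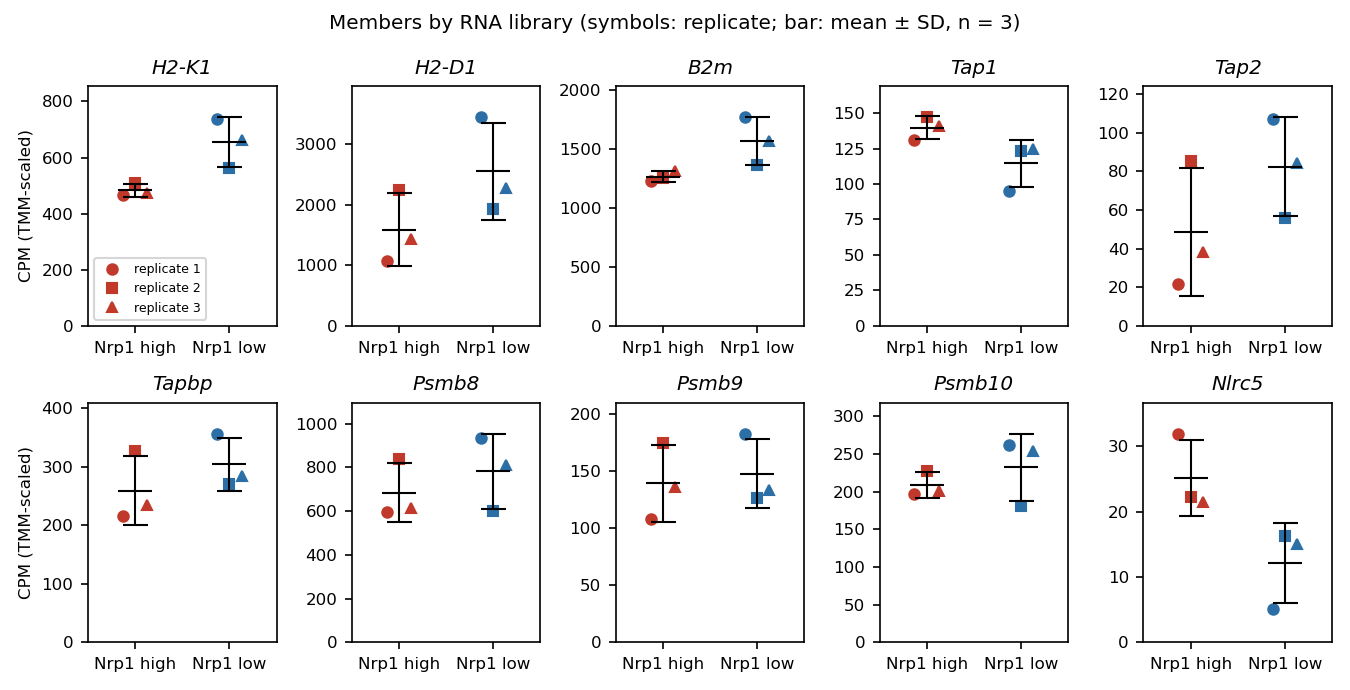
Level of each gene in CPM (linear axes from 0) in the 3 Nrp1 high libraries (left, red) and the 3 Nrp1 low libraries (right, blue), where symbols give the replicate and bars the mean and SD. The fractions do not overlap in H2-K1, B2m, Tap1 and Nlrc5, and Nrp1 low replicate 1 is the lowest point of Tap1 and Nlrc5 and the highest point of the other 8 genes.

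The classical heavy chains H2-K1 and H2-D1 bind the peptide and are inherited as part of the MHC on chromosome 17. H2-K1 (ENSMUSG00000061232, chromosome 17, 33996012 to 34000619 on GRCm38.p6) stood at 468, 510.1 and 472 CPM in the Nrp1 high libraries and at 739, 563 and 664 CPM in the Nrp1 low libraries. Every Nrp1 high library lay below every Nrp1 low library. The log2 fold change was -0.44 ± 0.19 SE, with a 95% interval of -0.87 to -0.01 that is not adjusted for the number of genes, and edgeR's adjusted p was 0.441. H2-D1 (ENSMUSG00000073411, 35263094 to 35267497 on the same chromosome) stood at 1073, 2249 and 1430 CPM in the Nrp1 high libraries and at 3442, 1927 and 2276 CPM in the Nrp1 low libraries. The fractions overlapped through Nrp1 high replicate 2, which lay above Nrp1 low replicate 2. The log2 fold change was -0.69 ± 0.34 SE (95% interval -1.46 to 0.09, edgeR adjusted p = 0.446). Because class I heavy chains resemble each other closely, reads may have been split or exchanged between them in counting, and the values of H2-K1, H2-D1 and the other heavy chains are uncertain.

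The RefSeq promoter windows of H2-K1 and H2-D1, from 250 bases before to 50 bases after the start, show how alike the promoters are. They are shown because each overlaps an open region listed in the ATAC table. The transcripts, from which the reads come, were not compared. H2-K1 lies at chr17:34000284-34000583 on the minus strand and H2-D1 at chr17:35262844-35263143 on the plus strand of GRCm38.p6. The H2-K1 window lies wholly within the gene span given above, so the start it is set on is an inner transcript start. Capitals mark matches to the motifs named in the next paragraph.
H2-K1: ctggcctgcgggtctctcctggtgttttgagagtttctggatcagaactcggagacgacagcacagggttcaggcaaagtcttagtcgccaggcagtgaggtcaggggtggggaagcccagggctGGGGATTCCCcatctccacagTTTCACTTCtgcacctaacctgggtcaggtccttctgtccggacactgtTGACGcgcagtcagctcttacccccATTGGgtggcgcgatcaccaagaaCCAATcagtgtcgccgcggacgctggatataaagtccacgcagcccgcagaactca
H2-D1: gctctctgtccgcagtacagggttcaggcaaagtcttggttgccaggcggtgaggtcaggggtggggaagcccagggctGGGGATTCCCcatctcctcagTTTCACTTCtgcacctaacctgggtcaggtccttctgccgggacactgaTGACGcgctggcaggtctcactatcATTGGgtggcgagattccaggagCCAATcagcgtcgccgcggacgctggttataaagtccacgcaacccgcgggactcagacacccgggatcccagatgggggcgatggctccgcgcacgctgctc
Of 253 aligned bases 222 were identical, or 87.7%, and the longest stretch without a difference ran over 47 bases. RefSeq gives H2-K1 a further window shifted by a few bases, which is not shown.

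Motifs were searched on both strands in these windows and in all 32851 windows of the RefSeq table. A kappaB element, which NF-kB binds, was searched as GGG, any 2 bases, TT, any base and CC, and the interferon element of class I promoters as GAANNGAAA. The interferon-stimulated response element was searched as GAAA and GAAA with any 2 bases between, and the gamma-activated site of interferon gamma responses as TTCNNNGAA. CCAAT stands for the box bound by NF-Y, and TGACG for the core of a cyclic AMP response element. Both heavy chain windows held the same kappaB match GGGGATTCCC, from -125 to -116 of the start in H2-K1 and from -171 to -162 in H2-D1. Both also held the class I interferon match TTTCACTTC, a TGACG and a pair of CCAAT boxes on opposite strands. Of all windows 4.79% held the kappaB letters, 7.52% the class I interferon letters, 37.4% CCAAT and 20.8% TGACG. The matches did not overlap each other, and a match describes letters only.

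B2m encodes beta-2 microglobulin, the light chain that every classical heavy chain needs to reach the surface. It stood at 1231, 1254 and 1316 CPM in the Nrp1 high libraries and at 1769, 1367 and 1572 CPM in the Nrp1 low libraries. The fractions did not overlap, although the gap between the highest Nrp1 high and the lowest Nrp1 low library was small. The mean was 1267 ± 44.0 CPM in the Nrp1 high libraries and 1569 ± 201 CPM in the Nrp1 low libraries (SD, n = 3 each; log2 fold change -0.31 ± 0.20 SE, 95% interval -0.76 to 0.14, edgeR adjusted p = 0.496). B2m (ENSMUSG00000060802) lies outside the MHC, on chromosome 2 from 122147687 to 122153082. Its promoter window, chr2:122147437-122147736 on the plus strand, is shown because it overlaps an open region and is the only window of the group with the interferon-stimulated response element.
B2m: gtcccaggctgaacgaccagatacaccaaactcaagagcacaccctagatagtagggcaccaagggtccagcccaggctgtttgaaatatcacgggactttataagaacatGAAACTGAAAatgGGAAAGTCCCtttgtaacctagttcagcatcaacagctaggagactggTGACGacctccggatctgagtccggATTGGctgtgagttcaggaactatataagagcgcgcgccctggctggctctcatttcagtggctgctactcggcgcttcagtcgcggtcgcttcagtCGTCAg
In capitals are GAAACTGAAA from -139 to -130, which 3.44% of all windows match, and the kappaB match GGAAAGTCCC from -126 to -117. They also mark a CCAAT box on the minus strand and 2 TGACG cores, 1 on each strand. The genes Patl2, at B2m, and Gm19412, at Tapbp, overlap these members with 19 and 404 counts in all libraries together, and without a stated strand their reads cannot be told apart.

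Tap1 and Tap2, which pair to form the peptide transporter, lay on opposite sides of 0. Tap1 (ENSMUSG00000037321, chromosome 17, 34187556 to 34197225) stood at 131, 147 and 141 CPM in the Nrp1 high libraries and at 95.4, 123 and 125 CPM in the Nrp1 low libraries. All Nrp1 high libraries lay above all Nrp1 low libraries, with Nrp1 low replicate 1 the lowest. The log2 fold change was 0.29 ± 0.19 SE (95% interval -0.14 to 0.71, edgeR adjusted p = 0.501), and it was 0.17 without Nrp1 low replicate 1. Tap2 (ENSMUSG00000024339, 34204479 to 34216321) stood at 21.8, 85.5 and 38.0 CPM in the Nrp1 high libraries and at 107, 55.7 and 84.4 CPM in the Nrp1 low libraries. Nrp1 high replicate 2 reached the level of the Nrp1 low libraries, and the other Nrp1 high libraries lay below all of them. The log2 fold change of Tap2 was -0.76 ± 0.48 SE, with the widest interval of the 10 genes (-1.86 to 0.33, edgeR adjusted p = 0.492). Leaving out 1 library moved it between -1.45, without Nrp1 high replicate 2, and -0.41, without Nrp1 high replicate 1.

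Tapbp (ENSMUSG00000024308, chromosome 17, 33919478 to 33929290) stood at 216, 326 and 235 CPM in the Nrp1 high libraries and at 356, 271 and 284 CPM in the Nrp1 low libraries. The fractions overlapped, again through Nrp1 high replicate 2. Its log2 fold change was -0.23 ± 0.22 SE (95% interval -0.75 to 0.28, edgeR adjusted p = 0.624).

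The 3 immunoproteasome subunits had small differences, the nearest to 0 of the 10 under TMM scaling, though with library totals Tapbp, at -0.04, lay nearer to 0 than Psmb9 and Psmb10. Psmb8 (ENSMUSG00000024338, chromosome 17, 34198195 to 34201454), the subunit that replaces Psmb5, stood at 597, 839 and 616 CPM in the Nrp1 high libraries and at 936, 599 and 810.5 CPM in the Nrp1 low libraries. Psmb9 (ENSMUSG00000096727, 34182030 to 34187330), which replaces Psmb6, stood at 108, 175 and 136 CPM in the Nrp1 high libraries and at 183, 127 and 134 CPM in the Nrp1 low libraries. Psmb10 (ENSMUSG00000031897, chromosome 8, 105935728 to 105938392), which replaces Psmb7, stood at 197, 228 and 201 CPM in the Nrp1 high libraries and at 262, 181 and 254 CPM in the Nrp1 low libraries. In all 3 genes the fractions overlapped, with Nrp1 low replicate 2 in or below the range of the Nrp1 high libraries. Log2 fold changes were -0.19 ± 0.24 SE for Psmb8, -0.09 ± 0.24 for Psmb9 and -0.15 ± 0.20 for Psmb10 (edgeR adjusted p = 0.709, 0.875 and 0.727). The 95% intervals, -0.75 to 0.37, -0.65 to 0.48 and -0.62 to 0.32, include changes in either direction. With library totals as the scaling all 3 turned above 0.

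**Figure D2:**
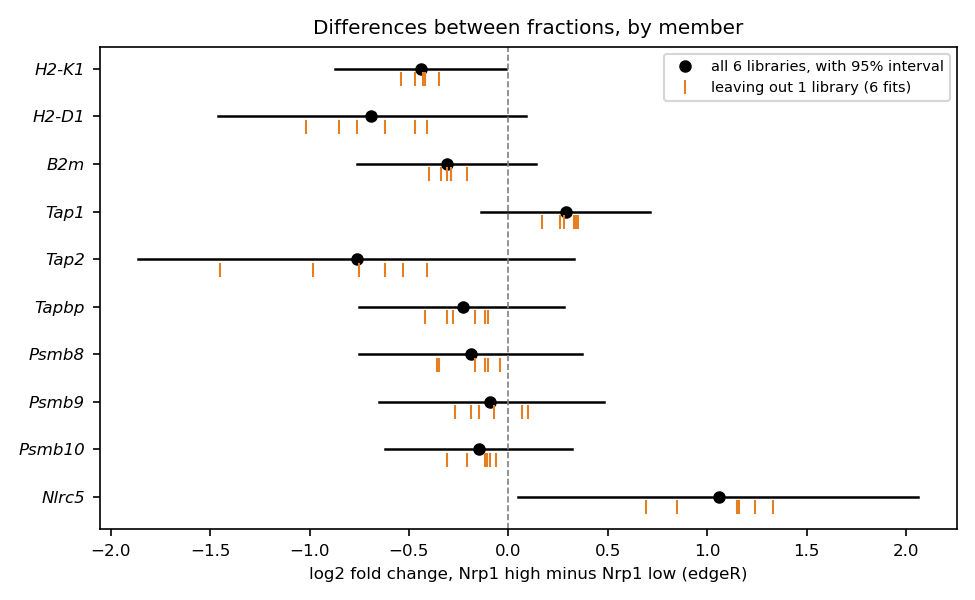
Log2 fold change of each gene, Nrp1 high minus Nrp1 low, from edgeR with all 6 libraries (black point, bar for the 95% interval) and with 1 library left out in each of 6 fits (orange ticks). Only the intervals of H2-K1 and Nlrc5 leave out 0, before adjustment over all genes, and Psmb9 has ticks on both sides of 0.

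At the RNA level, each immunoproteasome subunit was compared with the standard subunit it replaces. The value is the log2 ratio of counts within a library, not corrected for transcript length. The exchange of the proteins in the particle was not measured. Psmb8 over Psmb5 was 1.63, 2.18 and 1.91 in the Nrp1 high libraries and 2.13, 1.90 and 1.69 in the Nrp1 low libraries, so the means of 1.91 ± 0.27 and 1.91 ± 0.22 (SD) were alike and the ranges overlapped. Psmb9 over Psmb6 averaged -1.34 ± 0.18 in Nrp1 high and -1.59 ± 0.31 in Nrp1 low. Psmb10 over Psmb7 averaged 0.49 ± 0.21 in Nrp1 high and 0.78 ± 0.13 in Nrp1 low. The differences of 0.24 for Psmb9 and -0.30 for Psmb10 did not pass a two-sided exact permutation test (p = 0.4 and 0.2, adjusted p = 0.6 for both over the 3 ratios). For Psmb8 the exact p was 1, and 3 against 3 libraries cannot give less than 0.1. The standard subunits themselves were not called either. Psmb6 had a log2 fold change of -0.35 ± 0.25 SE, Psmb5 -0.21 ± 0.21 and Psmb7 0.15 ± 0.18 (edgeR adjusted p = 0.534, 0.637 and 0.693).

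Nlrc5 had the largest difference of the group. This NOD-like receptor family member is drawn to the promoters of class I heavy chain, B2m, Tap1 and Psmb9 genes and raises their transcription. Nlrc5 (ENSMUSG00000074151, chromosome 8, 94434335 to 94527272) stood at 31.9, 22.3 and 21.4 CPM in the Nrp1 high libraries and at 5.09, 16.2 and 15.0 CPM in the Nrp1 low libraries. All Nrp1 high libraries lay above all Nrp1 low libraries, and Nrp1 low replicate 1 lay far below the other 2. The mean was 25.2 ± 5.82 CPM in the Nrp1 high libraries and 12.1 ± 6.11 CPM in the Nrp1 low libraries, 2.08-fold (SD, n = 3 each; log2 1.06 ± 0.44 SE, 95% interval 0.05 to 2.06, edgeR adjusted p = 0.436). Without Nrp1 low replicate 1 the log2 fold change was 0.69 (edgeR adjusted p = 0.543). The lncRNA gene 9330175E14Rik overlaps Nlrc5 and had 503 counts in all libraries together.

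Long genes as a group were low in that library. Among genes with a mean of at least 10 CPM, the 2024 whose RefSeq span exceeds 50000 bases had a median log2 difference of -0.63 between Nrp1 low replicate 1 and the mean of the other Nrp1 low libraries. The 2261 genes with a span under 10000 bases had a median of 0.18. Nlrc5, with a span of 92938 bases, had -1.45. A gene's span includes introns and is not its transcript length, and the part of this pattern in the Nlrc5 difference was not tested.

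**Figure D3:**
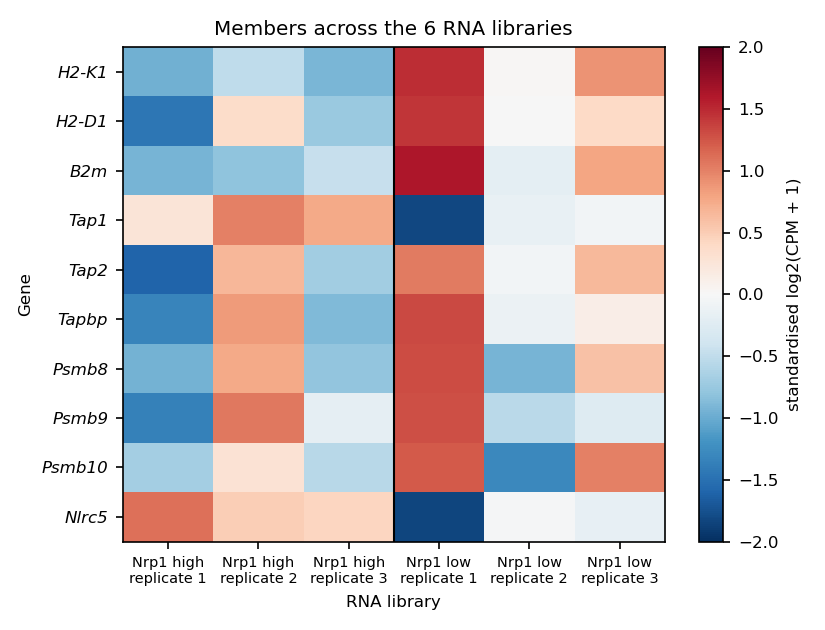
Level of each gene (rows) in each RNA library (columns, Nrp1 high left of the line), as log2(CPM + 1) standardised over the 6 libraries. In Nrp1 low replicate 1, Tap1 and Nlrc5 are blue and the other 8 genes red, while in Nrp1 high replicate 1 the reverse holds.

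Levels differed between libraries of the same fraction. Averaged over the 10 genes, the standardised level was -0.79, 0.42 and -0.40 in Nrp1 high replicates 1, 2 and 3 and 0.70, -0.33 and 0.40 in Nrp1 low replicates 1, 2 and 3. The average hides that Tap1 and Nlrc5 were lowest in Nrp1 low replicate 1, where the other 8 genes were highest. H2-D1 followed the order of the libraries on the first principal component exactly, from Nrp1 high replicate 1 through Nrp1 high replicate 3, Nrp1 low replicate 2, Nrp1 high replicate 2 and Nrp1 low replicate 3 to Nrp1 low replicate 1. Tap2 differed from that order only in exchanging Nrp1 high replicate 2 and Nrp1 low replicate 3, which stood at 85.5 and 84.4 CPM. The share of mitochondrially encoded counts followed exactly the reverse of that order, 3.01, 1.29 and 2.37% in Nrp1 high replicates 1, 2 and 3 and 0.784, 1.57 and 1.11% in Nrp1 low replicates 1, 2 and 3. Its part in these values was not tested.

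Among the genes outside the group whose profile over the 6 libraries was most like the mean profile of the 10 were Il2rg, the common gamma chain of cytokine receptors, Tbc1d10a, a GTPase-activating protein, Slc9a3r1, a scaffold protein, and Cope, a subunit of the coatomer. Pearson's r was 0.996 for Il2rg and Tbc1d10a, 0.994 for Slc9a3r1 and 0.993 for Cope. This is a description over 6 libraries that share scaling and depth. None of these 4 was called between the fractions by edgeR. Cope stood at 241, 443 and 287 CPM in the Nrp1 high libraries and at 547, 326 and 474 CPM in the Nrp1 low libraries, so that Nrp1 high replicate 2 lay above Nrp1 low replicate 2.

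The rest of the pathway was read from 10 lists with 142 genes, of which 132 were tested. By edgeR 0 of the 132 were called over all genes, and by DESeq2 and limma-voom also 0. At an unadjusted p under 0.05 edgeR gave 11, or 8.33%, against 11.2% of all genes. Under TMM scaling the medians of 8 of the 10 lists lay below 0, but with library totals, under which the median shift over all genes was 0.19 upwards, 5 did.

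**Figure D4:**
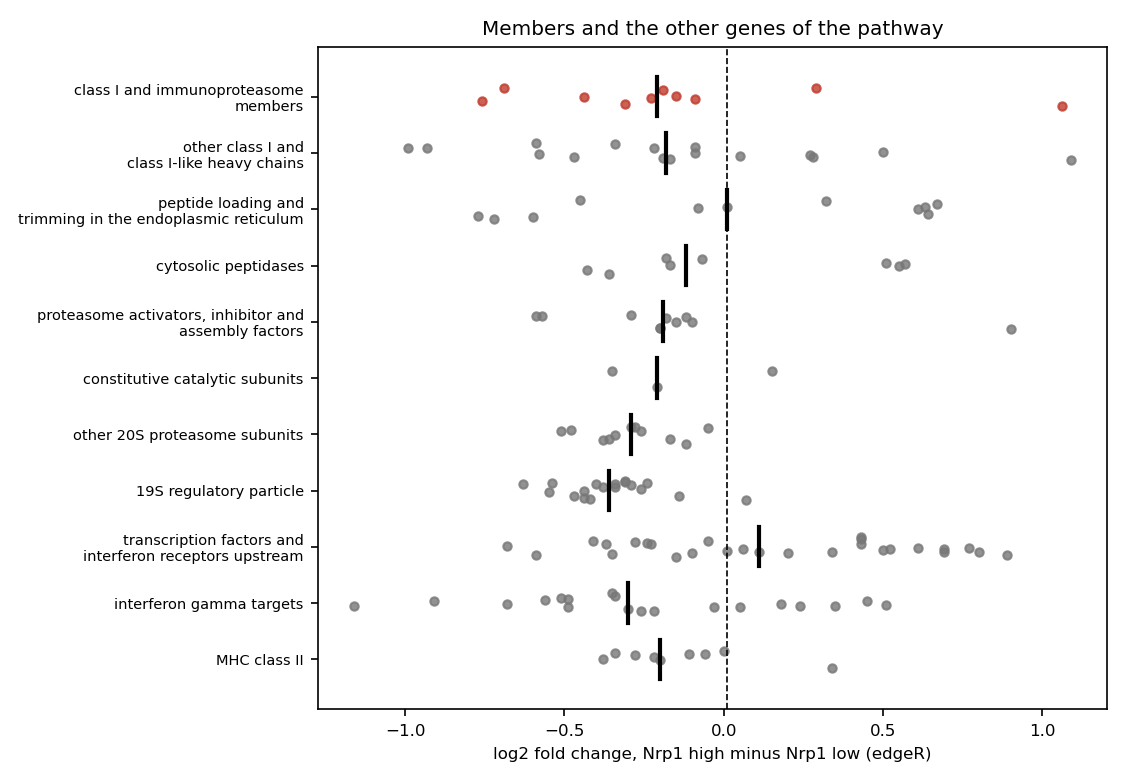
Log2 fold change, Nrp1 high minus Nrp1 low, of the 10 class I and immunoproteasome genes (red) and of the tested genes of the 10 pathway lists (grey, 1 point a gene, spread vertically at random), with the median of each list (black bar) and of all genes tested (dashed line, 0.01). The 19S and 20S proteasome subunits lie almost wholly left of 0, with medians of -0.36 and -0.29, and none of them passed the test.

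Of 11 other subunits of the 20S core, all 11 had point estimates below 0 (median -0.29), and of 18 subunits of the 19S regulatory particle, which recognises ubiquitin chains and unfolds substrates, 17 did (median -0.36). With library totals 8 of 11 and 16 of 18 did (medians -0.09 and -0.16), beside 5800 of all 15541 genes. None was called by edgeR, and at an unadjusted p under 0.05 there was 1, the core subunit Psma6, at 194, 189 and 168 CPM in the Nrp1 high libraries and 279.9, 214 and 276 CPM in the Nrp1 low libraries (log2 -0.48 ± 0.19 SE, adjusted p = 0.431). Psmb3, also of the core, had -0.51 ± 0.28. In the 19S particle Psmd4, a ubiquitin receptor, had -0.63 ± 0.28 and the ATPase Psmc5 -0.55 ± 0.26 (both adjusted p = 0.445). Of the 10 activators, inhibitor and assembly factors 9 lay below 0, with a median of -0.19 that turned to 0.02 with library totals. The assembly chaperones Psmg3 and Psmg1 had -0.57 ± 0.28 and -0.59 ± 0.33. The interferon-induced activator subunits Psme1 and Psme2 had -0.15 ± 0.21 and -0.10 ± 0.20, and were named after their values were seen.

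Genes of peptide loading and trimming in the endoplasmic reticulum lay on both sides of 0, 6 above and 5 below (median 0.01, and 0.20 with library totals). Pdia3, the oxidoreductase ERp57 of the loading complex, stood at 153, 279.7 and 213 CPM in the Nrp1 high libraries and at 501, 265 and 338 CPM in the Nrp1 low libraries (log2 -0.77 ± 0.31 SE, edgeR adjusted p = 0.432). Erap1, the aminopeptidase that trims peptides to the length class I molecules hold, stood at 71.4, 47.7 and 66.7 CPM in the Nrp1 high libraries and at 35.4, 50.9 and 35.7 CPM in the Nrp1 low libraries (log2 0.61 ± 0.25 SE, edgeR adjusted p = 0.435). The fractions overlapped in both. Among 8 cytosolic peptidases (median -0.12, and 0.07 with library totals) Blmh, bleomycin hydrolase, had -0.36 ± 0.18 and Dpp3, dipeptidyl peptidase 3, -0.43 ± 0.24 (edgeR adjusted p = 0.451 and 0.465). The estimates of the list lay on both sides of 0, 3 above and 5 below.

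Of the 24 other class I and class I-like heavy chains 16 were tested, with 5 above and 11 below 0 (median -0.18, and 0.01 with library totals). Hfe, a class I-like protein of iron regulation that binds no peptide, stood at 19.6, 26.2 and 27.6 CPM in the Nrp1 high libraries and at 62.5, 32.4 and 44.6 CPM in the Nrp1 low libraries, without overlap (log2 -0.93 ± 0.29 SE, edgeR adjusted p = 0.347). H2-T10, a non-classical heavy chain, stood at 5.21, 2.81 and 4.08 CPM in the Nrp1 high libraries and at 1.37, 1.96 and 2.37 CPM in the Nrp1 low libraries, also without overlap and in the other direction (log2 1.09 ± 0.44 SE, edgeR adjusted p = 0.433). H2-T10 has near copies, so its value is uncertain.

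Regulators upstream of class I lay on both sides of 0, 16 of 27 above (median 0.11, and 0.27 with library totals). Ifngr1, the ligand-binding chain of the interferon gamma receptor, stood at 314, 514 and 355 CPM in the Nrp1 high libraries and at 811, 495 and 588 CPM in the Nrp1 low libraries (log2 -0.68 ± 0.27 SE, edgeR adjusted p = 0.433). Rfxap, a subunit of the RFX complex that binds the X box of MHC promoters and that Nlrc5 and Ciita rely on, stood at 29.8, 29.6 and 24.8 CPM in the Nrp1 high libraries and at 50.7, 30.6 and 45.7 CPM in the Nrp1 low libraries (log2 -0.59 ± 0.25 SE, edgeR adjusted p = 0.441). The fractions overlapped in Ifngr1 and not in Rfxap. Of 19 tested interferon gamma targets 13 lay below 0 (median -0.30, and -0.09 with library totals). The GTPase gene Igtp had -0.68 ± 0.24 and the guanylate-binding protein gene Gbp8 -0.91 ± 0.33, without overlap in either (edgeR adjusted p = 0.390 and 0.400). In the 9 MHC class II genes the median was -0.20 with 1 gene above 0, and -0.02 with 4 above 0 under library totals, and H2-DMb2 and H2-Oa, chains of the accessory molecules of class II loading, had -0.38 ± 0.24 and 0.34 ± 0.29.

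Open chromatin at the 10 genes was read from the authors' deposited table, which holds the authors' log2 fold with its p-value and FDR per region and no value per library. The direction of the folds, taken here as Nrp1 high over Nrp1 low, rests on the name of the comparison alone, and which of the 10 ATAC libraries entered the table is not given in the labels. Of the 18 regions 0 had an FDR under 0.05 in the authors' deposited table, where 7.55% of all regions did, 2.56% higher and 4.99% lower in Nrp1 high. Among promoter regions of all genes it was 5.84%, and at an FDR under 0.01 it was 2.45% of all regions, against 0 of the 18. At the authors' unadjusted p under 0.05 there were 2 of 18, beside 23.7% of all regions. Folds ran from -0.44 to 0.33, with 9 regions above and 9 below 0, and the median of all regions was -0.09. The regions were 400 bases wide, but for 1 of 772 bases at Tapbp.

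**Figure D5:**
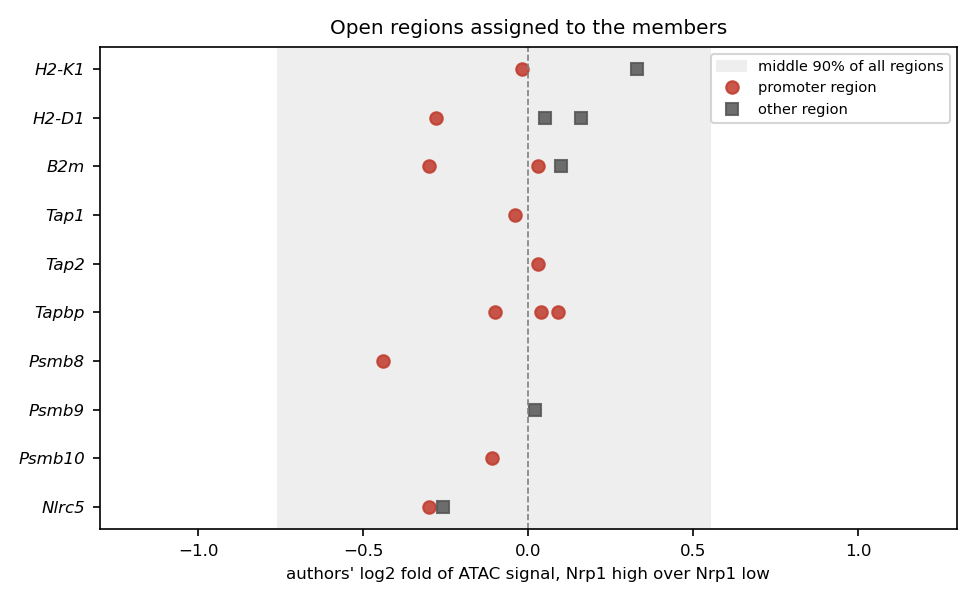
The authors' log2 fold of ATAC signal, Nrp1 high over Nrp1 low, of the 18 regions assigned to the 10 genes, as promoter regions (red circles) and other regions (grey squares), with the middle 90% of all 40796 regions in grey (-0.76 to 0.55). All 18 lie within that band, and the Psmb8 promoter is farthest left at -0.44.

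Of the 18 regions 12 were promoter regions within 1000 bases of a transcript start, and they were spread over 9 of the genes. The lowest FDR was that of the Psmb8 promoter, chromosome 17 from 34198057 to 34198456, with a fold of -0.44 in the authors' deposited table (p = 0.0062, FDR = 0.0659). The H2-D1 promoter, 35262677 to 35263076, had -0.28 in the authors' deposited table (p = 0.0217, FDR = 0.133). The Nlrc5 promoter on chromosome 8, 94434057 to 94434456, had -0.30 in the authors' deposited table (FDR = 0.312), and a region in an exon of Nlrc5, 94492243 to 94492642, had -0.26 (FDR = 0.352). Neither passed the threshold. At H2-K1 the promoter, 34000108 to 34000507, had -0.02 (FDR = 0.944 in the authors' deposited table). At B2m the region over the start, chromosome 2 from 122147485 to 122147884, had 0.03, and 1 within the gene, 122148419 to 122148818, had -0.30 (FDR = 0.911 and 0.321 in the authors' deposited table). The 3 Tapbp regions ran from -0.10 to 0.09 in the authors' deposited table, the Tap2 promoter had 0.03 and the Psmb10 promoter -0.11. Of the 6 other regions the highest fold was 0.33, at an intergenic region 4499 bases from the start of an H2-K1 transcript, with an FDR of 0.48 in the authors' deposited table.

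Psmb8 is the member whose promoter had the lowest FDR, and its window, chr17:34197945-34198244 on the plus strand, is shown for that reason.
Psmb8: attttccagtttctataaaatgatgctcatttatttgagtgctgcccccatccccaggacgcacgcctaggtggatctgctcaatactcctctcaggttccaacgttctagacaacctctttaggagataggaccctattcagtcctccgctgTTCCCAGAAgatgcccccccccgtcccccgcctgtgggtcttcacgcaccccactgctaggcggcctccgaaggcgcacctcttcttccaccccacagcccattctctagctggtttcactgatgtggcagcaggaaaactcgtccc
Its single match, in capitals, is the gamma-activated site TTCCCAGAA from -97 to -89, which 8.30% of all windows match. None of the other letters searched was found in this window.

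Tap1 and Psmb9 are transcribed away from each other, and their RefSeq starts lie 226 bases apart. The open region that covers the Tap1 start and most of the stretch between them, chromosome 17 from 34187356 to 34187755, was assigned to Tap1 and had a fold of -0.04 in the authors' deposited table (FDR = 0.849). The region assigned to Psmb9, 34170813 to 34171212, lies 12337 bases from the start of a Psmb9 transcript and had 0.02 (FDR = 0.964 in the authors' deposited table). The shared stretch, chr17:34187306-34187605 on the plus strand of Tap1, is shown because 1 region stands before both genes.
Tap1: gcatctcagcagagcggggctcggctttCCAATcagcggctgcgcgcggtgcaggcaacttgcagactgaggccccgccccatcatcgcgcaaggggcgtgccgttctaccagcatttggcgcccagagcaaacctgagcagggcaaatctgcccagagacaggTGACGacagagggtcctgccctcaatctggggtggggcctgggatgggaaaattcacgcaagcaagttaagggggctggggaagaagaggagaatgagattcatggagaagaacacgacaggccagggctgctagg
In capitals are a CCAAT box near the Psmb9 start and a TGACG core, from -86 to -82 of the Tap1 start.

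Promoter windows were in RefSeq's table for 8 of the 10 genes. The Psmb10 window, 105938343 to 105938642 on chromosome 8, held none of the motifs searched and overlapped no open region of the table. It does not reach the Psmb10 promoter region named above, 105937248 to 105937647, which lies 18 bases from another annotated start and was not searched. The Tapbp window held a pair of CCAAT boxes. In the other genes of the pathway 13 of 230 regions, or 5.65%, had an FDR under 0.05 in the authors' deposited table, 10 lower and 3 higher in Nrp1 high. This lies below the 7.55% of all regions, so the count is no result about the pathway. Among them were promoter regions of the heavy chains H2-Q5 (fold -1.11, FDR = 0.00292) and H2-T23 (-0.46, FDR = 0.0339) and of Irf1, a transcription factor of interferon responses (-0.47, FDR = 0.0213). Regions of the kinases Tyk2, Jak1 and Jak2, which pass on interferon signals, were also among the lower ones, with -0.76 for Tyk2 and for Jak1 in the authors' deposited table. The promoter of Calr, the chaperone calreticulin of the loading complex, had 0.36 (FDR = 0.0184), a region assigned to Hspa5, the chaperone BiP, 0.75 (FDR = 0.0401), and the promoter of H2-DMa 0.32 (FDR = 0.0449). These genes were named after their values were seen.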

How the data were processed

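RNA was measured in 6 and open chromatin in 10 libraries, grouped by the sample titles. For RNA the authors deposited estimated counts, all whole, and rounding changed 0 values. The submitters' processing notes name HISAT2, StringTie, Trimmomatic, BWA, Picard, MACS2, DiffBind and ChIPseeker with the build GRCm38, without saying which served which assay. The strand setting and the annotation were not found in the labels. For ATAC-seq the authors deposited each region's log2 fold with its p-value and FDR, so depth is unknown and no library could be left out. The direction rests on the name of the comparison in the labels, which describe a table made with another tool than the table used.

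After filterByExpr and TMM scaling, genes were tested with edgeR 4.0.16 (quasi-likelihood F test, robust; R 4.3.3), with Benjamini-Hochberg adjustment over 15541 genes. The procedure was tested on simulated data. CPM use scaled library sizes, and a pseudocount of 1 was used for log2 CPM. Ratios were tested by exact permutation. Alternatives included DESeq2 1.42.0 and limma-voom 3.58.1. The named genes are the 10, the ratio partners, Nrp1, the 2 of lowest p in each pathway list and the 5 of most similar profile with a mean of at least 10 CPM, of which 1 is not reported here. Motifs were chosen with the sequences in view, and genes and lists with earlier results of these data known. Nothing says that replicates came from separate animals, and p-values therefore cover only the spread of these libraries, possibly a technical one. Sequences and coordinates of genes are RefSeq's on GRCm38.p6.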

Additional observations from a re-analysis of the deposited data

How the results depend on the processing

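None of the 10 genes was called by edgeR, DESeq2 or limma-voom under any of 14 alternatives, with adjusted p between 0.196 and 0.985. B2m, H2-K1, H2-D1, Tap1, Tap2, Tapbp and Nlrc5 kept their sign in all of them. With library totals Psmb8 turned to 0.01, Psmb9 to 0.11 and Psmb10 to 0.05. Psmb9 also turned to 0.07 without Nrp1 high replicate 1 and to 0.10 without Nrp1 low replicate 1, and ranged from -0.27 to 0.10 with 1 library left out. The cause was not tested. Over all genes the count called was 106. It was 403 with DESeq2, 0 with the replicate number as a block (943 at unadjusted p under 0.05), and 0 to 125 with 1 library left out, the 0 (909 at unadjusted p under 0.05) without Nrp1 high replicate 3. The block also called 0 of the 10 genes. Deviations of same-numbered libraries from the mean of their fraction correlated at -0.342, -0.394 and 0.0321. For differently numbered libraries the correlations ran from -0.261 to 0.489. Within a fraction the 3 deviations of a gene sum to 0, so these values depend on each other. Whether replicate numbers pair the libraries was not tested.

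The difference of the Psmb8 over Psmb5 ratio ranged from -0.13 to 0.14 with 1 library left out, that of Psmb9 over Psmb6 from 0.07 to 0.36 and that of Psmb10 over Psmb7 from -0.41 to -0.22. With the replicate block, a sign-flip test, the exact p was 0.75 for Psmb9 over Psmb6 and 0.5 for Psmb10 over Psmb7. With so few pairs of libraries that test could not have given a p under 0.05. For ATAC, 2 of 18 regions passed an unadjusted p under 0.05, and 0 passed an FDR under 0.01 or among promoters alone. Each of the 10 genes had at least 160 counts in every RNA library, and what limited the calls was not tested.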
